A study of Mus musculus with 22 samples.

Results

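Genes of regulatory T cells and of the inhibitory checkpoints on T cells were followed in the spleens of mice that overexpress cyclin D1. They were Foxp3, Il2ra, Ikzf2, Icos, Pdcd1, Cd274, Pdcd1lg2, Lag3, Havcr2 and Tigit, and every probe annotated to one of them was taken. These were 16 probes for 10 genes, out of 19057 named genes on the array. All 16 probes passed the filter on dim signals, so that all 10 genes were tested. Cd3e, a subunit of the T cell receptor complex that every T cell carries, was measured beside them.

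Whole spleens of 22 mice were hybridised to 1 bead array each, and all mice carried the cyclin D1 transgene. The diseased group (n = 7) also lacked Bim, a protein that triggers cell death, in B cells and had developed MCL (mantle cell lymphoma, a B cell tumour driven by cyclin D1). The disease-free Bim-deleted group (n = 7) had the same alleles and no disease, and the transgene-only group (n = 8) had the transgene without the Bim deletion and no disease. Every mouse was stimulated with sheep red blood cells (SRBC), which provoke a T cell dependent antibody response. Beyond SRBC, 9 mice were irradiated, 5 received pristane, an inflammatory mineral oil, and 8 received nothing else. Diseased mice held 3 irradiated, 1 pristane and 3 SRBC-alone mice, disease-free Bim-deleted mice 3, 2 and 2, and transgene-only mice 3, 2 and 3. The labels place the Bim deletion in B cells, whereas most of the genes described here are T cell genes. The sources used here do not give the promoter of the transgene, the driver of the deletion, or the age and sex of the mice.

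FOXP3 is the transcription factor that defines regulatory T cells, which restrain other lymphocytes. These cells take up interleukin-2 through a receptor whose alpha chain is IL2RA, and STAT5 carries that signal to the Foxp3 gene. Helios, encoded by Ikzf2, marks many regulatory T cells. PD-1, LAG-3, TIM-3 and TIGIT, encoded by Pdcd1, Lag3, Havcr2 and Tigit, are inhibitory receptors of activated T cells, and some of them are also found on myeloid or natural killer cells. PD-L1 and PD-L2, encoded by Cd274 and Pdcd1lg2, are the ligands of PD-1 and sit on B cells, macrophages and dendritic cells as well. ICOS is a costimulatory receptor of follicular helper and regulatory T cells.

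Promoter windows are shown for a pair of T cell genes, Foxp3 and Tigit, and for the neighbouring ligand genes Cd274 and Pdcd1lg2, to set a receptor gene and the regulatory T cell factor beside the adjacent ligands. The sequences are RefSeq windows on GRCm38.p6, from 250 bases before to 50 bases after an annotated start site. Of the 10 genes, 7 had such a window, and Icos, Ikzf2 and Lag3 are named only. Capitals mark matches, on either strand, to 4 short motifs. The STAT motif GAS was searched as TTCNNNGAA and was matched in 8.30% of 32851 RefSeq promoter windows of this length. The motif of NFAT, a factor switched on by T cell receptor signals, was searched as GGAAAA and matched in 23.4%. The RUNX motif was searched as TGTGGT, with matches in 16.8% of windows. The GATA motif was searched as AGATAA and was found in 11.2%. A motif of interferon regulatory factors, found in 3.44%, had no match in the windows of these genes. Foxp3 had 2 annotated start sites, and the second is shown, at chrX:7580233-7580532 on the plus strand. Tigit lies at chr16:43664135-43664434 on the minus strand. The ligand windows are chr19:29367188-29367487 and chr19:29410669-29410968, both on the plus strand.
Foxp3: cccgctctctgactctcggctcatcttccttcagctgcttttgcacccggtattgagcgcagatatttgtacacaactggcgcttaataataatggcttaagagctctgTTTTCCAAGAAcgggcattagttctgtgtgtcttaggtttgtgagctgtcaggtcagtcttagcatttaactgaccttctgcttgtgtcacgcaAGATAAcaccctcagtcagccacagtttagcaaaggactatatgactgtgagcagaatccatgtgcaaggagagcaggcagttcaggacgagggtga
Tigit: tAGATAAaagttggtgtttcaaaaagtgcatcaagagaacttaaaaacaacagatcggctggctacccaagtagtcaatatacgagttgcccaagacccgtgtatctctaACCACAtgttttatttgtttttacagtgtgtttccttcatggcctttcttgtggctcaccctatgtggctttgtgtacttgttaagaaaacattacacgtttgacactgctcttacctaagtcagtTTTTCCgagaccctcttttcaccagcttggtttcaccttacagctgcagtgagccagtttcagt
Cd274: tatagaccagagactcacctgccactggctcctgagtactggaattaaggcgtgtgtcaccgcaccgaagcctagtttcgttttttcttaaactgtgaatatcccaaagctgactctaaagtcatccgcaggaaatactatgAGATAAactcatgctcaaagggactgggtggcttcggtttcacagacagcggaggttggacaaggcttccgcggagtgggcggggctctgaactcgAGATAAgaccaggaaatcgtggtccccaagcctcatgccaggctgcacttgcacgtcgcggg
Pdcd1lg2: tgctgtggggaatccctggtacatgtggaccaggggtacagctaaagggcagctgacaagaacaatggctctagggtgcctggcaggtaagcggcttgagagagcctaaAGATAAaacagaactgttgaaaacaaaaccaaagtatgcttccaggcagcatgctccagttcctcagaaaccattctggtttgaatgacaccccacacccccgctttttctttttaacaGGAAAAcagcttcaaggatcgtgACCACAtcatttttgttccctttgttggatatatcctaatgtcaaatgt
The Foxp3 window held a GAS match overlapping an NFAT match, and a GATA match. The other Foxp3 window held no match. Tigit and Pdcd1lg2 each held an NFAT, a RUNX and a GATA match, and Cd274 held 2 GATA matches. Havcr2 held a RUNX match, and the windows of Il2ra and Pdcd1 held none. A match describes letters in a window and not a bound site.

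Values are log2 intensities on arrays that share 1 distribution, with a median of 6.55 on every array. Intensities of different probes do not rank their genes by abundance. Arrays of the same group correlated at 0.906 to 0.990 over features. Cd3e was above the array median in every spleen but varied widely, with 7.90, 9.18 and 9.67 as the lowest, median and highest value in diseased mice. The same values were 8.71, 9.96 and 10.2 in disease-free Bim-deleted mice and 7.79, 10.2 and 10.8 in transgene-only mice. Irradiated diseased mouse 1 and transgene-only pristane mouse 2 stood lowest, at 7.90 and 7.79. Cd3e differed by -0.61 ± 0.41 (SE) between diseased and disease-free Bim-deleted mice (limma adjusted p = 0.537). Against transgene-only mice the difference was -0.84 ± 0.39 (limma adjusted p = 0.237). In whole-spleen RNA, fewer T cells and less RNA per T cell cannot be told apart.

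What goes with disease at one genotype was asked by setting diseased beside disease-free Bim-deleted mice. None of the 10 genes passed the threshold, a limma p adjusted over all features of 0.05, whereas 1.83% of the 20463 features did. Differences ran between -0.27 for Lag3 and 0.22 for Cd274. Their median was -0.0083, against -0.0040 over all features. Foxp3 alone, 1 of 10, had an unadjusted p under 0.05, as did 14.7% of all features. Against transgene-only mice 0 genes passed, with 5.22% of features past the threshold, and Foxp3 and Ikzf2, 2 of 10, had an unadjusted p under 0.05, as did 20.2% of all features. Disease-free Bim-deleted and transgene-only mice differed in 0 genes and 0% of features, and 0 of the 10 had an unadjusted p under 0.05, against 3.32% of all features. No gene had groups that did not overlap, in any of these comparisons. Such separation occurred in 0.445% of features for diseased against disease-free Bim-deleted mice, 1.06% against transgene-only mice and 0.00977% between the groups without disease.

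**Figure D1:**
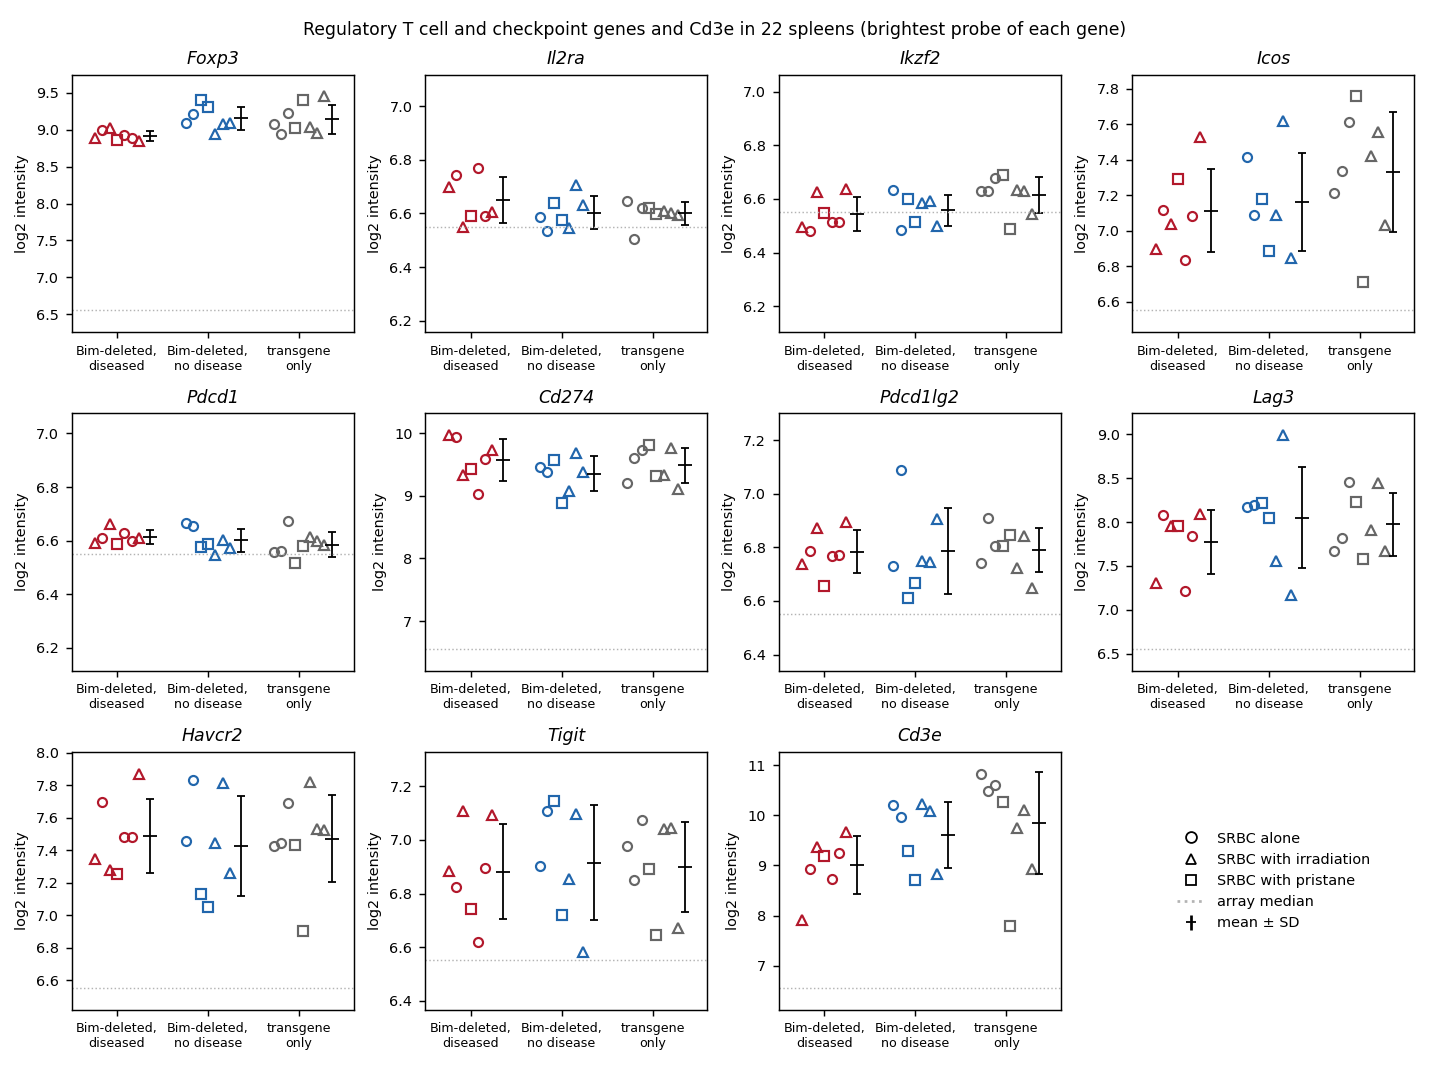
Log2 intensity (y axis, a scale for each gene) of the brightest probe of the 10 genes and of Cd3e in diseased Bim-deleted, disease-free Bim-deleted and transgene-only mice (x axis), with 1 point per mouse, the shape giving the stimulus, bars the mean ± SD, and the dotted line the array median of 6.55. Foxp3 is lower and less spread in diseased mice, and Il2ra, Ikzf2 and Pdcd1 lie close to the array median.

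Foxp3 had 4 probes, and the brightest stood at 8.85, 8.89 and 9.02 (lowest, median and highest) in diseased mice. The values were 8.94, 9.09 and 9.40 in disease-free Bim-deleted mice and 8.94, 9.06 and 9.46 in transgene-only mice. In each comparison 5 of the 7 diseased mice lay below every mouse of the other group. The mean was 8.92 ± 0.07 in diseased mice and 9.16 ± 0.16 in disease-free Bim-deleted mice (SD, n = 7 each), a difference of -0.24 ± 0.08 (SE). Its exact permutation p was 0.00291 (two-sided, unadjusted), and its limma adjusted p over all features was 0.138. Against transgene-only mice, at 9.14 ± 0.20 (SD, n = 8), the difference was -0.22 ± 0.08 (exact permutation p = 0.00528, unadjusted). The limma adjusted p there was 0.105. Without the 5 pristane mice diseased minus disease-free Bim-deleted was -0.15 (limma adjusted p = 0.302). Within SRBC alone it was -0.21 ± 0.13 (limma adjusted p = 0.517), and within irradiation -0.12 ± 0.12 (0.861).

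The other 3 Foxp3 probes gave a different order of mice. The second brightest had a mean of 7.03 ± 0.21 in diseased mice, 7.19 ± 0.28 in disease-free Bim-deleted mice and 7.35 ± 0.33 in transgene-only mice. Its difference was -0.16 ± 0.15 between the Bim-deleted groups (limma adjusted p = 0.685, with every probe as a feature, where 0 of the 16 probes and 1.75% of all probes passed). Against transgene-only mice it was -0.31 ± 0.14 (limma adjusted p = 0.221), with 0 of 16 and 4.57% of all probes past. Probes 3 and 4, in order of brightness, lay nearer the array median, with means of 6.79 and 6.57 over all mice. Over the 22 mice probes 2 to 4 correlated with each other at r = 0.80 to 0.95. The brightest probe correlated with them at r = -0.04, 0.03 and -0.23, with permutation p-values adjusted over 10 probe pairs of 0.903, 0.903 and 0.419. All 4 are annotated to the same Foxp3 transcript, so that a gene value from any single probe depends on which is taken.

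**Figure D2:**
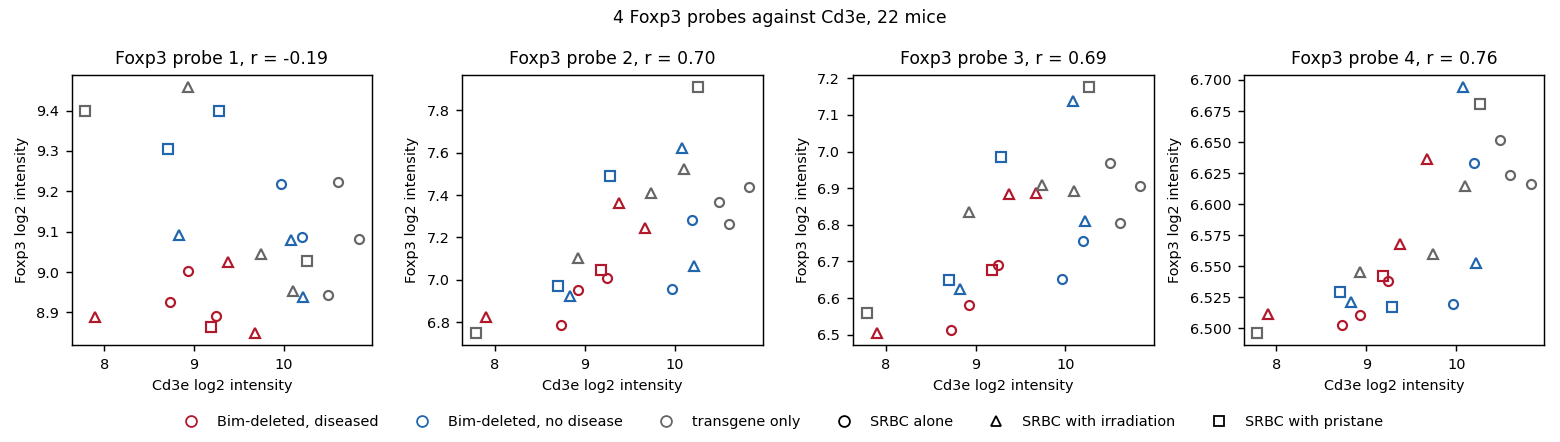
Log2 intensity of each of the 4 Foxp3 probes, brightest first (y axis, a scale for each probe), against Cd3e (x axis), 1 point per mouse with colour for the group and shape for the stimulus. Probes 2 to 4 are higher where Cd3e is higher, with r of 0.69 to 0.76, and probe 1 is not, at r = -0.19.

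Il2ra, the interleukin-2 receptor alpha chain, lay near background. Its brighter probe stood at 6.55, 6.60 and 6.77 (lowest, median and highest) in diseased mice, 6.53, 6.59 and 6.71 in disease-free Bim-deleted mice and 6.51, 6.61 and 6.65 in transgene-only mice. The groups overlapped, and diseased minus disease-free Bim-deleted mice was 0.05 ± 0.03 (limma adjusted p = 0.583). A second Il2ra probe was 0.09 ± 0.04 higher in diseased than in disease-free Bim-deleted mice (limma adjusted p = 0.199), with 5 of 7 diseased mice above all 7 others. The probes barely followed each other (r = 0.15 over 22 mice, permutation p adjusted over 10 pairs = 0.627). Ikzf2, which encodes Helios, also lay near background, with means of 6.54 ± 0.06 in diseased mice, 6.56 ± 0.06 in disease-free Bim-deleted mice and 6.61 ± 0.07 in transgene-only mice. Diseased minus transgene-only was -0.07 ± 0.03 (limma adjusted p = 0.229). Pdcd1, the PD-1 gene, spanned only 6.52 to 6.67 over all 22 mice, and its differences between groups were at most 0.03. Signals this close to the array median limit what these probes could show.

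Icos, the costimulatory receptor, stood at 6.83, 7.08 and 7.53 in diseased mice, 6.85, 7.09 and 7.62 in disease-free Bim-deleted mice and 6.71, 7.38 and 7.76 in transgene-only mice. The spread within each group was as wide as the distance between them, and diseased minus transgene-only was -0.22 ± 0.15 (limma adjusted p = 0.444). Lag3, an inhibitory receptor that binds MHC class II, stood at 7.21, 7.95 and 8.09 in diseased mice, 7.17, 8.17 and 8.99 in disease-free Bim-deleted mice and 7.58, 7.86 and 8.46 in transgene-only mice. Its difference between the Bim-deleted groups was -0.27 ± 0.23 (limma adjusted p = 0.638), with a 95% interval of -0.75 to 0.20. It was -0.12 without disease-free Bim-deleted irradiated mouse 2 and -0.42 without irradiated mouse 3 of that group. Tigit, an inhibitory receptor for nectin family ligands, averaged 6.88 ± 0.18 in diseased mice, 6.92 ± 0.21 in disease-free Bim-deleted mice and 6.90 ± 0.17 in transgene-only mice. Its 95% interval of -0.24 to 0.17 for diseased minus disease-free Bim-deleted mice still holds changes in either direction. Havcr2, the TIM-3 gene, averaged 7.49 ± 0.23 in diseased mice, 7.43 ± 0.31 in disease-free Bim-deleted mice and 7.47 ± 0.27 in transgene-only mice, with an interval of -0.23 to 0.35 for the first pair.

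The PD-1 ligands are neighbours on chromosome 19 of GRCm38.p6, Cd274 at 29362107 to 29388095 and Pdcd1lg2 at 29410919 to 29472927, with 22823 bases between them. Cd274 stood at 9.03, 9.59 and 9.97 in diseased mice, 8.88, 9.38 and 9.68 in disease-free Bim-deleted mice and 9.11, 9.47 and 9.80 in transgene-only mice. The 3 highest diseased mice were above every disease-free Bim-deleted mouse, and the groups otherwise overlapped. The difference was 0.22 ± 0.15 (limma adjusted p = 0.551), and against transgene-only mice 0.09 ± 0.15 (0.808). On leaving out single mice these were 0.15 (without disease-free Bim-deleted pristane mouse 2) to 0.31 and 0.02 (without diseased irradiated mouse 1) to 0.18, both highest without diseased SRBC-alone mouse 2. Pdcd1lg2 averaged 6.78 ± 0.08 in diseased mice, 6.79 ± 0.16 in disease-free Bim-deleted mice and 6.79 ± 0.08 in transgene-only mice. Of the disease-free Bim-deleted mice 1 reached 7.09, and the others lay between 6.61 and 6.91.

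**Figure D3:**
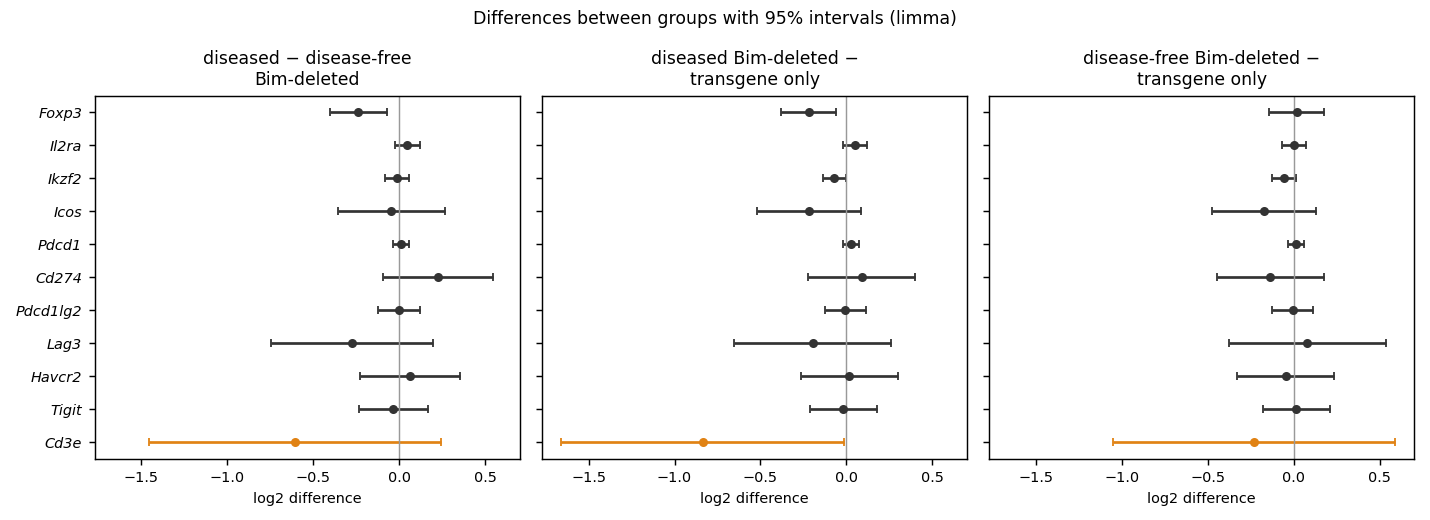
Log2 differences (x axis) of the brightest probe of the 10 genes and of Cd3e with 95% intervals from limma, unadjusted, in the 3 group comparisons. Foxp3 has an interval below 0 in both comparisons with diseased mice, Ikzf2 and Cd3e just below 0 against transgene-only mice, and no gene passed after adjustment over 20463 features.

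The stimuli were compared in a model that holds the group constant. Irradiation against SRBC alone moved 0 of the 10 genes past the threshold and 0% of features, with differences between -0.05 and 0.02 and 0 unadjusted p-values under 0.05. Pristane against SRBC alone also moved 0, with 0.0147% of features past the threshold. Havcr2 had the smallest p, at 6.90, 7.13 and 7.43 (lowest, median and highest) in pristane mice and 7.43, 7.48 and 7.83 in SRBC-alone mice. The highest pristane mouse just reached the lowest SRBC-alone mouse, and the difference was -0.41 ± 0.12 (limma adjusted p = 0.149). Without transgene-only pristane mouse 1 it was -0.48 (limma adjusted p = 0.0284), the only 1 of 22 single-mouse omissions in which it passed. The share of all features past the threshold in that fit is not given here, so the pass cannot be read as particular to Havcr2. Without transgene-only pristane mouse 2, the lowest of its group, the difference was -0.34 (limma adjusted p = 0.377). The second Havcr2 probe averaged 7.12 ± 0.19 in pristane and 7.28 ± 0.09 in SRBC-alone mice, a difference of -0.17 ± 0.09 in the same model (limma adjusted p = 0.411, every probe a feature). Cd3e differed by -0.96 ± 0.40 in the same comparison (limma adjusted p = 0.263), and its part in the Havcr2 difference was not tested. For the interaction, the disease difference under irradiation minus that under SRBC alone, 0 of the 10 genes and 0% of features passed, and 0 genes had an unadjusted p under 0.05. Within SRBC alone 0 of 10 genes passed (0.0147% of features), and Il2ra, 1 of 10, had an unadjusted p under 0.05, as did 13.6% of all features. Within irradiation 0 of 10 passed (0.0586%), with 0 unadjusted p-values under 0.05.

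Each probe was then set against Cd3e over the 22 mice, in a family of 16 relations with permutation p-values adjusted over all 16. Among named features the median r with Cd3e was 0.015, and 9.76% exceeded 0.5. Ikzf2 followed Cd3e at r = 0.77 (rho = 0.75), with an adjusted p of 0.00032 for r and 0.00064 for rho. Icos followed at r = 0.75 (rho = 0.77) for its brighter probe, with the same adjusted p-values, and at r = 0.64 (rho = 0.66) for the other (adjusted p = 0.00392 and 0.00323). In diseased mice, Bim-deleted mice free of disease and transgene-only mice r was 0.71, 0.54 and 0.90 for Ikzf2 and 0.72, 0.72 and 0.77 for Icos. Foxp3 probes 2 to 4 followed at r = 0.70, 0.69 and 0.76 (rho = 0.75, 0.71 and 0.80), with adjusted p-values of 0.00128, 0.00138 and 0.00032 for r and 0.00068, 0.000896 and 0.00016 for rho. Within SRBC alone and within irradiation r was 0.83 and 0.78 for Ikzf2 and 0.76 and 0.73 for the brighter Icos probe, and it was at least 0.67 for these Foxp3 probes. By group these Foxp3 probes had r = 0.78, 0.84 and 0.74 in diseased mice, but 0.36, 0.39 and 0.58 in disease-free Bim-deleted mice, and 0.74, 0.69 and 0.86 in transgene-only mice. Without the 2 mice of most extreme Cd3e, r was 0.73 for Ikzf2, 0.68 for the brighter Icos probe, and 0.61, 0.59 and 0.74 for these Foxp3 probes.

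Tigit followed Cd3e at r = 0.56 (rho = 0.53, adjusted p = 0.0141 and 0.0281), and without the 2 mice r was 0.55. Lag3 had r = 0.51 and rho = 0.45 (adjusted p = 0.0254 and 0.0636), with 0.39 without those mice. The Havcr2 probes had r = 0.51 and 0.57 (rho = 0.36 and 0.49; adjusted p for r = 0.0254 and 0.0116, for rho 0.164 and 0.0431). Over all mice these relations rest partly on the 2 mice with the lowest Cd3e, since r was 0.35 and 0.29 without them. In diseased, disease-free Bim-deleted and transgene-only mice r was 0.35, 0.76 and 0.63 for the brighter Havcr2 probe. For the other Havcr2 probe it was 0.65, 0.82 and 0.67. The disease-free Bim-deleted group holds neither of those 2 mice. In the same order r was 0.46, 0.56 and 0.78 for Tigit and 0.78, 0.40 and 0.50 for Lag3. Within SRBC alone r was -0.12 and 0.57 for the Havcr2 probes, 0.41 for Lag3 and 0.67 for Tigit, and within irradiation it was 0.52, 0.44, 0.67 and 0.50 in that order. Without the pristane mice r was 0.28 and 0.44 for Havcr2, 0.55 for Lag3 and 0.52 for Tigit, with adjusted p-values of 0.411, 0.125, 0.0544 and 0.0632.

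The remaining probes did not pass for either coefficient. Cd274 had r = 0.11 (rho = 0.21, adjusted p = 0.723 and 0.487), Pdcd1lg2 0.18 (0.18, 0.518 and 0.522) and Pdcd1 0.02 (-0.03, 0.914 and 0.963). The Il2ra probes had r = -0.33 and -0.05 (rho = -0.20 and -0.01, adjusted p for r = 0.201 and 0.873, for rho 0.487 and 0.964). The brightest Foxp3 probe had r = -0.19 (rho = -0.03, adjusted p = 0.518 and 0.963), with 0.01 in diseased, -0.57 in disease-free Bim-deleted and -0.73 in transgene-only mice. Within SRBC alone the same probe had r = 0.56 and within irradiation -0.15, so its relation to Cd3e differed in sign between subsets, a difference that was not tested.

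**Figure D4:**
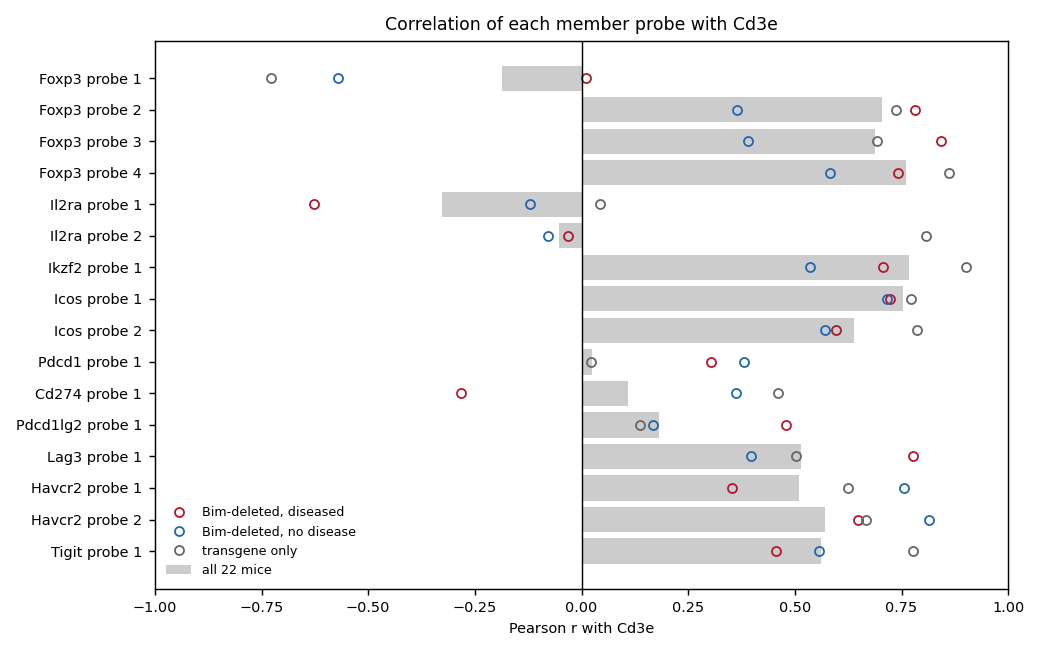
Pearson r (x axis) of each of the 16 probes (y axis) with Cd3e over all 22 mice (grey bars) and within diseased Bim-deleted, disease-free Bim-deleted and transgene-only mice (points). Ikzf2, Icos, Tigit, Lag3, Havcr2, Pdcd1lg2, Pdcd1 and Foxp3 probes 2 to 4 are positive in all 3 groups, Pdcd1 at only 0.02 in transgene-only mice. Foxp3 probe 1 is negative in the groups without disease.

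Relative to Cd3e, taken as log2 intensity minus that of Cd3e, all 10 genes were higher in diseased mice and 0 passed the threshold in any comparison, and 4 of 10 had an unadjusted p under 0.05 against transgene-only mice, below the 52.3% of all features that did. The median over the genes was 0.60 for diseased minus disease-free Bim-deleted mice, and over all features it was 0.60 as well, since subtracting Cd3e adds its own difference to every feature. Features past the threshold were 0.0635% there, 0.841% for diseased minus transgene-only and 0.0195% for disease-free Bim-deleted minus transgene-only mice. Against transgene-only mice the median was 0.82 for the genes and 0.83 for all features. Without transgene-only pristane mouse 2, which had the lowest Cd3e, all 10 genes passed in that comparison, and without transgene-only irradiated mouse 3, 6 did. Of all 20462 features 19871 and 16258 passed in the same fits.

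A fit with Cd3e as a covariate lets each gene follow Cd3e by its own slope, held the same in all 3 groups. There the brightest Foxp3 probe was lower in diseased than in disease-free Bim-deleted mice, with a difference of -0.31 ± 0.07 (limma adjusted p = 0.0243), with 1 of 10 genes and 2.11% of features past the threshold. Against transgene-only mice the difference was -0.32 ± 0.07 (limma adjusted p = 0.0163), with 1 of 10 genes and 3.93% of features past. Both differences rest on the common slope. The r of this probe with Cd3e was 0.01 in diseased, -0.57 in disease-free Bim-deleted and -0.73 in transgene-only mice. Whether its slope differs between groups was not tested. On leaving out single mice, an alternative chosen after seeing the data, the first call was lost without disease-free Bim-deleted pristane mouse 1 (adjusted p = 0.0539) or 2 (0.0752). The second was lost without transgene-only pristane mouse 2 (0.0706) or irradiated mouse 3 (0.0531). With every probe a feature, the second brightest Foxp3 probe differed by -0.016 ± 0.12 (limma adjusted p = 0.972) and -0.12 ± 0.12 (0.695) in the same comparisons. Probe 3 differed by -0.044 ± 0.078 (limma adjusted p = 0.858) and -0.092 ± 0.079 (0.621). Probe 4 differed by 0.011 ± 0.025 (limma adjusted p = 0.898) and -0.0084 ± 0.025 (0.918). The other 9 genes had adjusted p-values of 0.446 or more between the Bim-deleted groups and 0.479 or more against transgene-only mice.

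Partners of the regulatory T cell genes, a list of 25 of which 19 were measured, changed in both directions. Ebi3, a subunit of interleukin-27 and interleukin-35, rose in diseased mice, at 8.86 ± 0.51, against 7.82 ± 0.28 in disease-free Bim-deleted mice (difference 1.04 ± 0.22 SE, limma adjusted p = 0.0181, lost in 1 of 32 alternatives). Stat5a, which transmits the interleukin-2 signal, fell to 7.88 ± 0.17 in diseased mice, against 8.16 ± 0.12 in disease-free Bim-deleted mice (-0.28 ± 0.07, limma adjusted p = 0.0487), a call lost in 22 of 32 alternatives. Both also passed against transgene-only mice, with differences of 0.98 and -0.37 (limma adjusted p = 0.00984 and 0.00454). In that comparison 2 of the 19 rose and 4 fell, Ebi3 and Ctla4 being those that rose, against 1 and 1 between the Bim-deleted groups. Over all features 1.16% rose and 0.665% fell between the Bim-deleted groups, and 2.24% rose and 2.98% fell against transgene-only mice. Satb1, a chromatin organiser of T cells, fell by 1.57 on the log2 scale against transgene-only mice (limma adjusted p = 0.0271), a call lost in 7 of 32 alternatives. The other genes that fell, named after their values were seen, were Tgfb1 (-0.48, limma adjusted p = 0.0304, lost in 7 of 32 alternatives), a cytokine that induces Foxp3, and Runx1 (-0.12, limma adjusted p = 0.0349, lost in 11 of 32), a transcription factor that partners with FOXP3. The list's median was -0.07 and -0.12 in the 2 comparisons, against -0.0040 and -0.0026 over all features.

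Ctla4, the inhibitory receptor most closely tied to regulatory T cells, lies next to Icos on chromosome 1, with 44940 bases between them. It stood at 7.47, 7.83 and 8.74 (lowest, median and highest) in diseased mice, 6.79, 7.35 and 7.67 in disease-free Bim-deleted mice and 6.62, 7.20 and 7.54 in transgene-only mice. Diseased minus transgene-only was 0.80 ± 0.20 (limma adjusted p = 0.0218), and without diseased SRBC-alone mouse 1 it was 0.68 (adjusted p = 0.0543). Diseased minus disease-free Bim-deleted was 0.72 ± 0.20 (limma adjusted p = 0.0749). Between the Bim-deleted groups Icos differed by -0.05 ± 0.15 with its brighter probe and by 0.01 ± 0.05 with the other. Its sign thus depended on the probe. Foxp3 differed by -0.24 ± 0.08 with its brightest probe, opposite in sign to Ctla4. Whether these differences differ from each other was not tested.

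Of the checkpoint partners, ligands and signalling proteins, 24 of 25 were measured. Cd80, a ligand of CTLA-4 and CD28, rose in diseased mice, at 7.62 ± 0.22, against 7.17 ± 0.18 in disease-free Bim-deleted mice (0.44 ± 0.10 SE, limma adjusted p = 0.0281, lost in 9 of 32 alternatives). It rose by 0.47 against transgene-only mice (limma adjusted p = 0.00845). Nectin2, a ligand of TIGIT, rose by 0.46 ± 0.12 between the Bim-deleted groups (limma adjusted p = 0.0444, lost in 19 of 32). The list had 2 rises and 0 falls there, and 1 rise and 0 falls against transgene-only mice, with medians of -0.016 and -0.023. Over all features 1.16% rose and 0.665% fell between the Bim-deleted groups, and 2.24% rose and 2.98% fell against transgene-only mice. Of 9 follicular helper T cell genes 0 passed between the Bim-deleted groups and 1 against transgene-only mice, where 1.83% and 5.22% of all features did. In both comparisons 7 of the 9 were lower, with medians of -0.048 and -0.084. The 1 that passed was Bcl6, their master regulator and also that of germinal centre B cells. Bcl6 fell to 8.69 ± 0.50 in diseased mice, against 9.69 ± 0.31 in transgene-only mice (limma adjusted p = 0.0181).

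Markers of other cells were measured beside these genes, and their part in the results was not tested. Over all features 1.83% passed between the Bim-deleted groups and 5.22% against transgene-only mice. T cell markers were lower in 11 of 12 genes in both comparisons, with medians of -0.38 and -0.55, and Bcl11b alone passed, falling against transgene-only mice by 1.06 (limma adjusted p = 0.0411, lost in 13 of 32 alternatives). Their list mean was 7.87 to 9.08 in diseased, 8.35 to 9.47 in disease-free Bim-deleted and 7.58 to 9.90 in transgene-only mice. B cell markers had list means of 8.81 to 9.19, 8.02 to 9.59 and 7.66 to 9.42 in the same groups. They were higher in 6 of 9 genes in both comparisons, with medians of 0.018 and 0.072. Cr2 alone passed, falling by 0.49 against transgene-only mice (limma adjusted p = 0.0218). Macrophage markers had medians of 0.25 and 0.17, with Marco 0.78 higher between the Bim-deleted groups (limma adjusted p = 0.0297, lost in 10 of 32). Dendritic cell markers, where PD-L1 and PD-L2 are also made, had medians of -0.03 and -0.08, with 1 of 9 past the threshold against transgene-only mice, Xcr1 (0.12, limma adjusted p = 0.0198), near background. Of 5 natural killer markers 2 were higher between the Bim-deleted groups and 3 against transgene-only mice, with medians of -0.042 and 0.0077. Prf1 alone passed, falling by 0.59 against transgene-only mice (limma adjusted p = 0.0369, lost in 11 of 32). Neutrophil and erythroid markers had 0 of 7 and 0 of 6 past in either comparison, with medians of -0.75 and -0.17 and of 0.61 and 1.23. Of 10 targets of interferon gamma, an inducer of PD-L1, Gbp3 alone rose, by 0.75 against transgene-only mice (limma adjusted p = 0.0333, lost in 10 of 32), and the list's median was 0.05 and 0.16.

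The named genes most alike each gene over the 22 mice were ranked by Pearson r, as a description of arrays that share the same spleens. Ikzf2 was most like Gata3 (0.83), Nrp1 (0.82) and Vps37d (0.82), and Icos most like Cc2d1a (0.83), Dusp4 (0.82) and Ikzf2 (0.81). The second brightest Foxp3 probe, looked at after its values were seen, was most like Cpxm1 (0.90), Msc (0.89) and Rab26 (0.88). The brightest Foxp3 probe was most like Smtn (0.81), Celsr3 (0.80) and Nolc1 (0.79). Tigit was most like Msi2 (0.82), Itgal (0.81) and Nlrc5 (0.78), Lag3 like Psmb10 (0.80), Rgs16 and Tap1 (0.79 each), and Havcr2 like H2-M3 (0.80), Lpxn (0.77) and Arap2 (0.76). Cd274 was most like Tmem86a (0.88), P2ry13 (0.83) and Etv5 (0.82), and Pdcd1lg2 like Tfb2m (0.79), Ei24 (0.75) and Nipa2 (0.74). For Il2ra and Pdcd1, near background, the highest r was 0.72 (Efcab11) and 0.67 (Gm9780).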

How the data were processed

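Spleen RNA of 22 mice was measured on Illumina bead arrays with biotin label, per the labels' protocols. The values are log2 intensities deposited by the authors, normalized to 1 distribution shared by all arrays. The log base was read from the values, and no source used here states the background correction or software. Another table, of intensities before normalization, holds 44 columns whose names match no mouse and was left out.

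Of 45281 probes, 34885 carried 1 gene symbol, 18 several and 10378 none. Probes that exceeded the 40th percentile of the array on 7 or more arrays were kept (30013), and the probe with the highest mean stood for a gene, giving 20463 features. Symbols were matched through gene identifiers to GRCm38.p6, which changed 0 of them. Groups and stimuli came from the titles, which list 8 transgene-only mice where the design text speaks of 7. All 8 were used, and each mouse was taken as a replicate.

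Group comparisons came from limma 3.58.1 (R 4.3.3, lmFit and eBayes), stimuli from an additive fit of both factors, and the interaction from a mean per combination. P-values were two-sided and adjusted by Benjamini-Hochberg over all features, with a threshold of 0.05. Single probes were compared by exact permutation tests over 3432 or 6435 splits (scipy 1.17.1), and relations with 100000 permutations. The number of arrays limits the precision. On simulated data 81% of features given a log2 change of 0.5 were recovered for diseased against disease-free Bim-deleted mice. Against transgene-only mice 80% were, with 20463 features each. The changed features were drawn at random, and the median SE over all features was 0.048 between the Bim-deleted groups. There Lag3, Cd274, Icos and Havcr2 had SEs of 0.23, 0.15, 0.15 and 0.14, and Tigit, Foxp3 and Pdcd1lg2 of 0.097, 0.080 and 0.059, so these shares do not describe them. Changes under 0.5 were not simulated, whereas the differences of the 10 genes ran between -0.27 and 0.22 there. Il2ra, Ikzf2 and Pdcd1, near background, had smaller SEs of 0.034, 0.034 and 0.023. Named genes were all members, Cd3e, list genes past the threshold (at most 4 a list and comparison) and the 3 most alike genes of each member. For the regulatory T cell partners against transgene-only mice, all genes past the threshold were named. The members and lists were chosen with earlier results of these data known. Alternatives covered filters, probes, eBayes settings, array weights, covariates, a replicate block, and leaving out mice.

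Mice with the same stimulus and number in the title were checked for pairing. Their deviations from group means correlated at a median of -0.037 over 20 pairs (range -0.35 to 0.66), so the numbers were not taken as pairs.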

Additional observations from a re-analysis of the deposited data

Results flagged for a closer look

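Among 54 groups of mice scanned, 1 for each probe and group, 4 held a mouse far from the others by Dixon's criterion, which chance alone meets in about 1 group in 20. Havcr2 was low in transgene-only pristane mouse 2 with both probes, at 6.90 (next mouse 7.43) and 6.82 (next 7.17). The same mouse had the lowest Cd3e of all mice, at 7.79. Il2ra was low in transgene-only SRBC-alone mouse 2, at 6.51 (next 6.60), with the brighter probe. Icos was high in disease-free Bim-deleted irradiated mouse 2, at 6.77 (next 6.59), with its dimmer probe.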

How the results depend on the processing

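In the 3 group comparisons 0 members passed the threshold under each of 32 alternatives. Foxp3 kept its direction in all 33 of its alternatives, among them its second brightest probe (chosen after seeing the data), with limma adjusted p-values of 0.0862 to 0.685 between the Bim-deleted groups and 0.0744 to 0.221 against transgene-only mice. With pristane the count of members was 0 to 1 on leaving out single mice, the 1 being Havcr2. The share of all features past the threshold in that fit is not given here. Irradiation and interaction counts stayed at 0. Differences near 0 changed sign, and the cause was not tested. With array weights Tigit was 0.013 between the Bim-deleted groups, and against transgene-only mice Pdcd1lg2 was 0.0072 and Havcr2 -0.034. Havcr2 was -0.027 against transgene-only mice with stimulus as a covariate. Without the pristane mice Havcr2 was -0.035 between the Bim-deleted groups and -0.047 against transgene-only mice, and Pdcd1lg2 0.026 there. The Xist level was taken as a proxy for the sex of the mice, which the labels do not give. How far the Xist level tracks sex is not shown here. With it as a covariate Ikzf2, Pdcd1lg2 and Tigit were 0.0010, 0.047 and 0.026 between the Bim-deleted groups, Pdcd1lg2 and Tigit 0.023 and 0.018 against transgene-only mice, and, relative to Cd3e, Foxp3 and Lag3 were -0.087 and -0.028 between the Bim-deleted groups. On leaving out single mice, diseased minus disease-free Bim-deleted was -0.12 to 0.030 for Icos, -0.031 to 0.048 for Pdcd1lg2, -0.0030 to 0.13 for Havcr2 and -0.090 to 0.0094 for Tigit. Against transgene-only mice it was -0.027 to 0.015, -0.065 to 0.066 and -0.056 to 0.026 for the last 3.

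Relative to Cd3e, counts of members between the Bim-deleted groups were 9 with array weights and 1 with Cd3e as a covariate, and against transgene-only mice 10 with array weights, 7 with stimulus as a covariate, 10 without the pristane mice, 1 with Cd3e as a covariate, and 0 to 10 on leaving out single mice. Of 20462 features 20192 and 20168 passed with array weights, and against transgene-only mice 17070 with stimulus as a covariate and 19544 without the pristane mice. With Cd3e as a covariate the brightest Foxp3 probe was -0.31 and -0.32, Lag3 -0.11 between the Bim-deleted groups and Ikzf2 -0.021 against transgene-only mice. With the replicate block, although the title numbers were not found to pair mice (5 of 22 mice were closest to the mouse of the same label), Havcr2 was -0.028 between the Bim-deleted groups and -0.053 against transgene-only mice, and 8 and 10 members passed relative to Cd3e, where 18297 and 19649 features did, and it changed no other count of members. For the relations with Cd3e, alternatives were chosen after seeing the data. With the other Cd3e probe r was -0.017 for Pdcd1. Without the pristane mice it was 0.13 for the brightest Foxp3 probe and -0.13 for Cd274, while Foxp3 probes 2 to 4 kept r = 0.71, 0.68 and 0.72. Features past the threshold between the Bim-deleted groups were 374, but 806 without the pristane mice, 745 with array weights, 91 when only those groups were fitted, and 141 (without diseased SRBC-alone mouse 1) to 692 (without diseased pristane mouse 1) on leaving out single mice. Against transgene-only mice they were 1069, but 2690 without the pristane mice, 2618 with array weights, and 576 (without diseased SRBC-alone mouse 2) to 1960 (without transgene-only pristane mouse 2) on leaving out single mice. Background correction by neqc was not run, because the unnormalized columns match no mouse. Genes near background, Il2ra, Ikzf2 and Pdcd1 among them, limit what the signal can show.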
